A study of Mus musculus with 13 samples.

Results

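The 39 genes of the mouse Hox clusters were described: every gene in the files whose symbol is Hox followed by the letter a, b, c or d and a number, out of 20325 genes. Cluster a had 11 of them, cluster b 10, cluster c 9 and cluster d 9. The membership used names alone, and all 39 were in each of the 13 libraries. The study sequenced RNA of pre-iPSCs derived from mouse embryonic fibroblasts (MEFs), cells stalled on the way to induced pluripotency, which were either wild type (WT) or lacked the histone demethylase gene Kdm3b (KO). Cells of each genotype were taken on days 0, 2 and 10 under AA+2i (ascorbic acid with the GSK3 inhibitor CHIR-99021 and the MEK inhibitor PD-0325901) in serum medium with leukaemia inhibitory factor, with 2 libraries, lettered A and B, in each of the 6 groups. The day 0 libraries have DMSO in their titles although their treatment label reads AA+2i, and were taken as the start of the time course. The remaining library came from WT V6.5 mouse embryonic stem cells (ESCs), also labelled AA+2i. The labels name neither the clones nor the strain of the pre-iPSCs, nor how Kdm3b was removed. They do not say whether letters A and B were separate cultures, so p-values measure only the spread between these libraries, which may be technical.

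Hox genes encode homeodomain transcription factors that set identity along the head-to-tail axis and along the limbs. Within a cluster the genes lie in the order in which they are used: paralogue groups 1 to 3 are anterior, groups 4 to 8 central and groups 9 to 13 posterior, with group 13 at the 5′ end of the cluster. Fibroblasts keep the Hox pattern of the body site they came from when grown in culture, which is called a positional code, whereas pluripotent stem cells hold the clusters largely silent under Polycomb repression. A Hox protein commonly binds DNA together with a TALE homeodomain partner of the Pbx, Meis or Pknox families.

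The libraries held 14891294 to 26430050 expected counts, and levels are given as counts per 1000000 of the library total (CPM), so that 1 count was worth 0.0378 to 0.0672 CPM. The Kdm3b level was 146 to 261 CPM in the 6 WT pre-iPSC libraries and 17.7 to 65.5 CPM in the 6 KO libraries, without overlap. At days 0 and 2 the letters differed: the A minus B differences of 12603 genes correlated at 0.88 to 0.922 between any pair of these 4 groups, and at -0.132 to 0.036 wherever a day 10 group took part. Fibroblast identity was checked with 15 markers. At day 0, 7 to 8 of the 15 were under 1 CPM in WT and 11 to 12 in KO, with Lum at 0 in all 12 pre-iPSC libraries, Dcn at 0.08 or less and Col1a1 at 1.32 and 4.67 CPM in WT and 0.045 and 0.20 CPM in KO. Other members of the list were expressed, and all 15 together summed to 76.2 and 195 CPM in WT and 96.2 and 306 CPM in KO at day 0. These are bulk libraries, in which fewer cells expressing a gene and less of its RNA per cell cannot be told apart.

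At day 0 the WT cells still carried a broad Hox pattern, made almost wholly of clusters a and d. Of the 39 genes, 17 had a group mean of at least 1 CPM in WT at day 0, 9 of them in cluster a, 1 in b, 1 in c and 6 in d, and 11 reached 5 CPM, all in clusters a and d. On a scale that corrects for transcript length (transcripts per 1000000, TPM), Hoxd13 and Hoxa10 ranked first in library A at 20.65 and 20.35 TPM, and Hoxd4 and Hoxa10 in library B at 56.05 and 32.27 TPM. Clusters a and d made up 45.3% ± 2.01 and 49.4% ± 1.78 of all Hox TPM (SD, n = 2), against 2.41% ± 0.12 for cluster b and 2.92% ± 0.11 for cluster c. Over all 39 genes, the anterior genes held 10.8% ± 0.22 of the Hox TPM, the central genes 44.1% ± 7.08 and the posterior genes 45.1% ± 7.30 (SD, n = 2). The pattern did not fill clusters a and d from end to end. Hoxa13 was at 0.53 and 0.62 CPM, Hoxd1 at 0.49 and 0.47 CPM and Hoxd11 at 0.64 and 0.73 CPM. Within these clusters the level did not follow position gene by gene. Hoxa11 was at 0.83 and 0.68 CPM although its neighbour Hoxa10 was at 26.3 and 31.6 CPM, and Hoxd12 was at or under 0.31 CPM beside Hoxd13 at 29.3 and 29.1 CPM.

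**Figure D1:**
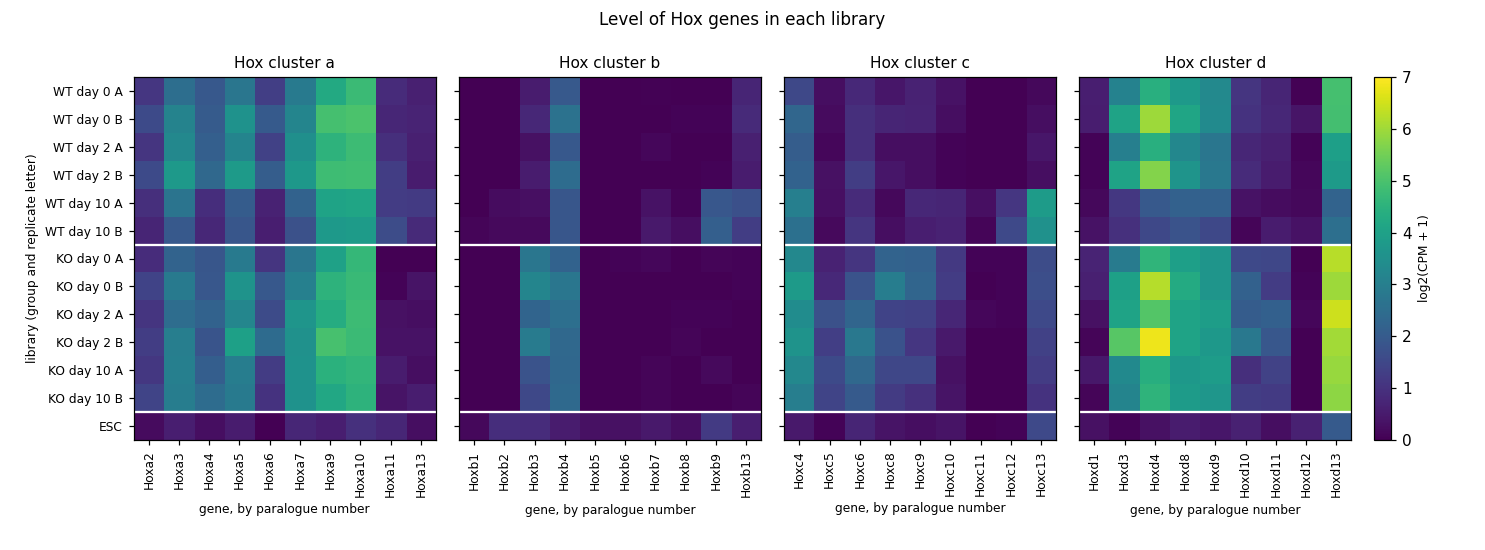
Level of Hox genes (columns, by cluster and paralogue number) in the 13 libraries (rows), coloured as log2(CPM + 1). Most genes of clusters a and d are above 1 CPM at day 0. Cluster b holds no gene but Hoxb3 and Hoxb4 above 1 CPM in pre-iPSC libraries other than those of WT day 10. No gene is above 2.93 CPM in the ESC row.

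In cluster d, 6 of the 8 genes tested fell in WT between day 0 and day 10 and none rose, where 13.1% of all genes were called lower and 21.0% higher. In KO none of the 8 was called over the same days, where 5.19% of all genes were called lower and 9.93% higher, a count near those shares. The results turn on Hoxd13, which patterns the digits and the genital region, and on the central genes Hoxd8 and Hoxd4. Their upstream sequences are shown because genes that fell together here differ in promoter composition, dense in CpG dinucleotides at Hoxd13 and poor in them at Hoxd4 and Hoxd8, with Hoxa10 of cluster a for comparison. Each line holds the 200 bases that precede the annotated start in RefSeq (GRCm38.p6), with each CpG in capitals.
Hoxd13, chr2:74668025-74668224, plus strand: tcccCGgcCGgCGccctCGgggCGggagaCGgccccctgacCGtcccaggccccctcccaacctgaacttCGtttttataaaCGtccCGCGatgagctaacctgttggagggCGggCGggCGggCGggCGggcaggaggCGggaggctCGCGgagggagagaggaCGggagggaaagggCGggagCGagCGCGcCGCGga
Hoxd8, chr2:74704415-74704614, plus strand: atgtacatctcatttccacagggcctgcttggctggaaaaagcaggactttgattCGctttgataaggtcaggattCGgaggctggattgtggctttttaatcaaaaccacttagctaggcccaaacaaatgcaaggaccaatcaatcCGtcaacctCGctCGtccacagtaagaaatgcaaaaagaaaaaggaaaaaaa
Hoxd4, chr2:74721778-74721977, plus strand: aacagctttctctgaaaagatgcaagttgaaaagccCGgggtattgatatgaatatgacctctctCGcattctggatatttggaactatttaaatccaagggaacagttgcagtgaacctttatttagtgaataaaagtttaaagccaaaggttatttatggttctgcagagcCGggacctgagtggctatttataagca
Hoxa10, chr6:52234940-52235139, minus strand, 1 of its 2 annotated starts: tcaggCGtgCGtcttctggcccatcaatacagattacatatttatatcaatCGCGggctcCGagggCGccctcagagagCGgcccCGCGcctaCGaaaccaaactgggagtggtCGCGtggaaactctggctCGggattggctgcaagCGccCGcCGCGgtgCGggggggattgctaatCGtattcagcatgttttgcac
The windows of 300 bases (250 before the start and 50 after it) held 37 CpGs at Hoxd13, 6 at Hoxd8, 4 at Hoxd4 and 21 at this Hoxa10 start. RefSeq promoter windows were matched for 22 of the 39 genes, 24 windows in all. Their CpG count ranged from 4 to 45 with a median of 14.5, against a median of 7 over all 32851 windows of that length. The motif TGATNNAT, written as a core of Hox and Pbx binding and searched on both strands, was in 4 of the 24 windows (16.7%) and in 8.85% of all windows, and in none of the windows printed here. The expression files were counted on mm9, so these coordinates serve only to name the sequences.

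Hoxd13 stood at 29.3 and 29.1 CPM in the WT day 0 libraries, at 14.4 and 13.1 CPM at day 2 and at 3.69 and 4.92 CPM at day 10. In KO the levels were 74.7 and 61.7, then 87.9 and 64.1, then 59.98 and 54.6 CPM, so that every KO library lay above every WT library and the WT groups fell without overlap from one day to the next. The WT day 10 against day 0 log2 fold change was -2.82 (SE 0.27, adjusted p = 0.000122), from edgeR's quasi-likelihood test with Benjamini-Hochberg adjustment over 14324 genes, as is every adjusted p given here. In KO it was -0.32 (SE 0.24, adjusted p = 0.451), not called.

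Hoxd8 and Hoxd9, which act in the trunk and the proximal limb, went the same way. Hoxd8 was at 12.6 and 16.2 CPM in WT at day 0, 8.52 and 11.3 CPM at day 2 and 3.47 and 2.46 CPM at day 10, and at 14.4 and 18.5, 15.6 and 15.7 and 12.2 and 13.4 CPM on those days in KO. Both WT day 10 libraries lay below all other pre-iPSC libraries, and the WT log2 fold change from day 0 was -2.32 (SE 0.24, adjusted p = 0.000171). Hoxd9 was at 8.85 and 9.18 CPM in WT at day 0, 5.76 and 6.03 CPM at day 2 and 3.53 and 1.88 CPM at day 10, against 11.6 and 11.6, 14.004 and 12.2 and 13.6 and 11.8 CPM in KO. It fell in WT by 1.79 (SE 0.29, adjusted p = 0.00161) on the log2 scale, while the KO value of 0.07 (SE 0.27, adjusted p = 0.926) was not called.

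Hoxd3 and Hoxd4, neighbours towards the 3′ end, carried the letter difference of days 0 and 2, so their values are also given within a letter. Hoxd4, which helps pattern the neck vertebrae, was at 20.3 and 62.1 CPM (A and B) in WT at day 0, 20.3 and 51.1 CPM at day 2 and 2.87 and 1.85 CPM at day 10, and at 22.8 and 73.2, 33.8 and 111 and 19.9 and 22.5 CPM in KO. Library B held 2.52 to 3.29 times the A level at days 0 and 2 and 0.646 to 1.13 times at day 10. The WT day 10 libraries were below every earlier library, with a log2 fold change of -4.13 (SE 0.84, adjusted p = 0.00509), which lost its call at an adjusted p of 0.0502 without WT day 10 replicate B. With only the A libraries kept at days 0 and 2 the WT change was -3.20, and with only the B libraries -4.72. Such fits leave 1 library in each group of days 0 and 2, so only their effect sizes are given.

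In KO the Hoxd4 change from day 0 to day 10 depended on the letter: it was -0.19 against the A libraries and -1.79 against the B libraries. Against both it was -1.21 (SE 0.72, adjusted p = 0.326). Hoxd3 was at 7.55 and 15.8 CPM in WT at day 0, 7.07 and 15.6 CPM at day 2 and 1.21 and 0.97 CPM at day 10, and at 6.46 and 14.9, 15.6 and 35.5 and 8.92 and 7.93 CPM in KO. Its WT change was -3.44 (SE 0.60, adjusted p = 0.00252), and its KO change of -0.38 (SE 0.52, adjusted p = 0.717) was not called. The KO change was 0.29 against the A libraries and -0.82 against the B libraries. Hoxd3 and Hoxd4 share annotated exon sequence in GENCODE, and Hoxd3 also overlaps the antisense genes Haglr and Hoxd3os1. The labels do not state that the library kit kept strand, so reads of these genes cannot be told apart. The same limit holds for other members with antisense overlaps: Hoxa3 and Hoxa7 (Hoxaas3), Hoxa4 (Gm29430), Hoxa11 (Hoxa11os), Hoxb3 (Hoxb3os) and Hoxd4 (Hoxd3os1). Hoxd10 and Hoxd11 both overlap Gm28309 on their own strand.

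**Figure D2:**
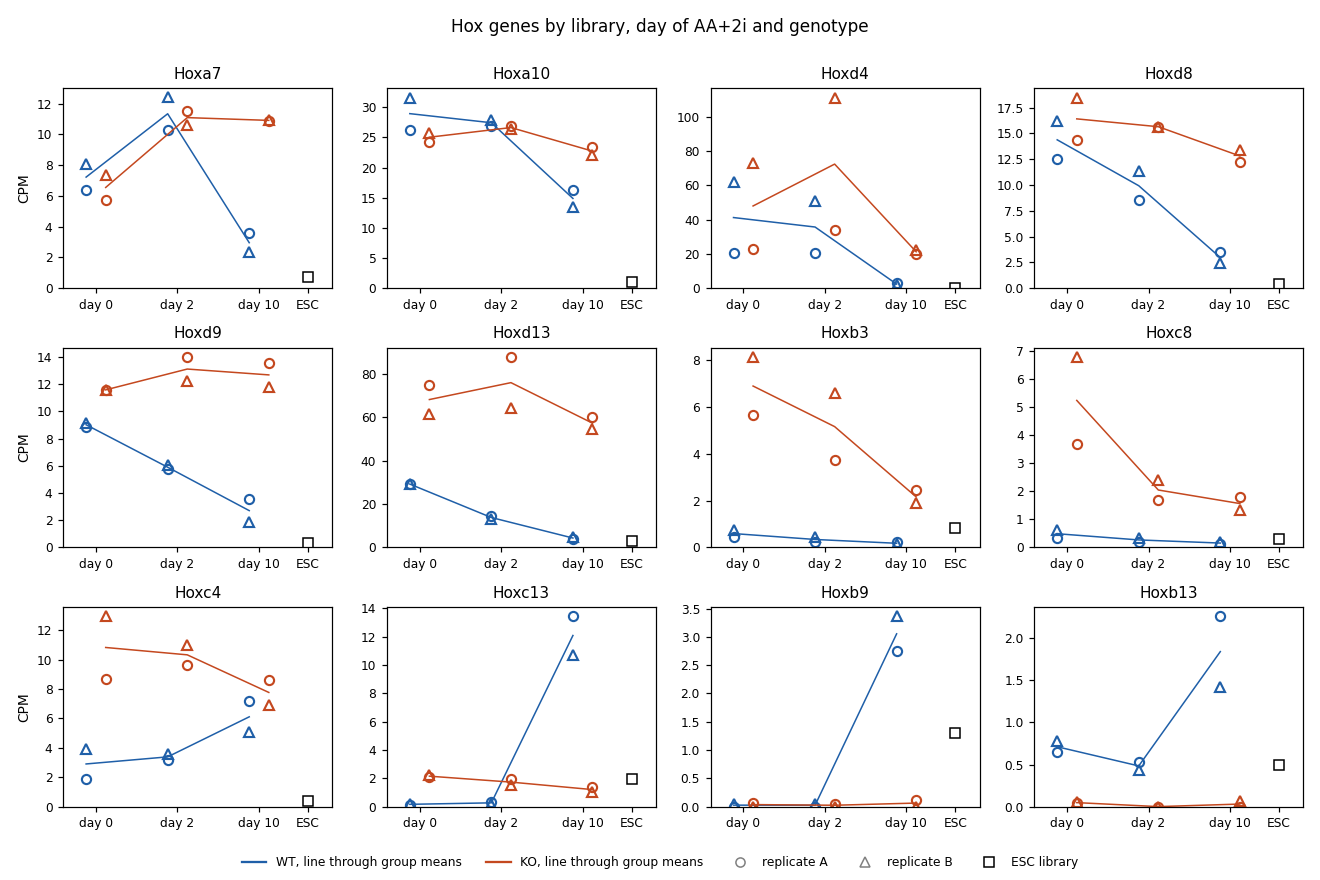
CPM (linear axes from 0, each panel on its own scale) of 12 Hox genes by day and genotype, with circles for replicate A, triangles for B, squares for the ESC library and lines through the 2-library means. The WT line of Hoxd13 ends at 3.69 and 4.92 CPM while the KO line ends at 59.98 and 54.6 CPM, and Hoxc13, Hoxb9 and Hoxb13 are high at WT day 10.

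The 6 cluster d genes that fell in WT were Hoxd3, Hoxd4, Hoxd8, Hoxd9, Hoxd10 and Hoxd13, and the median log2 fold change of all 8 tested was -2.47. In KO, with 0 of the 8 called, 1 had an unadjusted p under 0.05, and the median was -0.40. Hoxd10 was at 1.10 and 1.04 CPM in WT at day 0 and 0.28 and 0.065 CPM at day 10, and at 1.93 and 3.53, 3.07 and 5.98 and 0.94 and 1.39 CPM on days 0, 2 and 10 in KO. It fell in WT by 2.62 (SE 0.62, adjusted p = 0.0108) on the log2 scale, with an adjusted p of 0.0732 without WT day 10 replicate B. Hoxd11, at 0.64 and 0.73 CPM in WT at day 0 and 0.17 and 0.45 CPM at day 10, and Hoxd1, at 0.63 CPM or less in every pre-iPSC library, were not called in either genotype.

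Of the 11 genes of cluster a, 5 fell (Hoxa4, Hoxa5, Hoxa6, Hoxa7 and Hoxa10), all but Hoxa10 central, none rose, against 13.1% of all genes called lower and 21.0% higher, and the median log2 fold change was -1.01. Hoxa7, a trunk patterning gene, was at 6.39 and 8.05 CPM at day 0, 10.3 and 12.4 CPM at day 2 and 3.58 and 2.33 CPM at day 10 in WT. In KO it was at 5.75 and 7.35, 11.5 and 10.6 and 10.9 and 10.96 CPM, so that day 10 was the lowest group in WT and among the highest in KO. Its log2 fold change from day 0 was -1.34 (SE 0.25, adjusted p = 0.00328) in WT and 0.68 (SE 0.24, adjusted p = 0.0929) in KO, the latter not called. Hoxa4, another central gene, was at 2.80 and 3.01 CPM in WT at day 0 and 0.88 and 0.71 CPM at day 10, a change of -1.91 (SE 0.32, adjusted p = 0.00208), with KO day 10 at 3.25 and 4.54 CPM.

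Hoxa10, a posterior gene used in the limb and the uterus, was at 26.3 and 31.6 CPM in WT at day 0, 26.95 and 27.9 CPM at day 2 and 16.3 and 13.5 CPM at day 10, against 24.3 and 25.8, 26.95 and 26.3 and 23.4 and 22.1 CPM in KO. The WT day 10 libraries lay below all other pre-iPSC libraries, with a change of -1.01 (SE 0.16, adjusted p = 0.00134). Hoxa9, next to it, was at 18.01 and 29.7 CPM in WT at day 0, 22.1 and 27.5 CPM at day 2 and 15.6 and 12.5 CPM at day 10, and at 15.2 and 21.9, 18.99 and 30.05 and 21.3 and 17.3 CPM in KO. Its WT change of -0.81 (SE 0.28, adjusted p = 0.0514) was just short of a call. By day 10 Hoxa10 and Hoxa9 had become the 2 highest Hox genes of the WT cells, at 13.72 and 13.4 TPM in library A and 11.21 and 10.55 TPM in B.

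Hoxa3, an anterior gene, was not called in WT between day 0 and day 10. Hoxa3 was at 4.81 and 7.82, 8.54 and 12.7 and 5.46 and 2.85 CPM in WT and at 3.68 and 6.30, 4.65 and 6.98 and 7.06 and 6.84 CPM in KO, and its day 0 and day 10 groups overlapped in WT but not in KO. Hoxa5, which acts in lung and neck vertebrae, was at 5.67 and 10.9, 7.99 and 12.97 and 3.09 and 2.65 CPM in WT and at 6.23 and 11.2, 8.20 and 14.6 and 6.87 and 6.24 CPM in KO. Its WT change was -1.56 (SE 0.40, adjusted p = 0.0153), or -1.10 against the A libraries alone and -1.95 against the B libraries alone. With both letters in, its adjusted p was 0.0721 without WT day 10 replicate A, 0.119 without WT day 0 replicate B and 0.096 without WT day 10 replicate B.

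Hoxa6 fell by 1.98 (SE 0.61, adjusted p = 0.034) on the log2 scale in WT, a call that ended in 5 of 12 single-library omissions, and Hoxa2 (-1.01, SE 0.44, adjusted p = 0.111) and Hoxa13 (0.77, SE 0.68, adjusted p = 0.437) were not called. Hoxa6 was at 1.47 and 2.92 CPM in WT at day 0 and 0.61 and 0.52 CPM at day 10.

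In WT 6 of the 31 Hox genes tested were called higher at day 10 than at day 0, a count near the 21.0% of all genes called higher. Of these, 5 were posterior genes, all of clusters b and c. Hoxc13, which is needed for hair and nails, was at 0.11 and 0.21 CPM at day 0, 0.34 and 0.19 CPM at day 2 and 13.4 and 10.7 CPM at day 10, a log2 fold change of 6.17 (SE 0.41, adjusted p = 3.18e-05). In KO it began higher and ended lower, at 2.07 and 2.23, 1.92 and 1.54 and 1.38 and 1.03 CPM. Hoxc12, its neighbour, had 0 counts in all 4 WT libraries of days 0 and 2 and was at 1.16 and 1.94 CPM at day 10. By the limit that 0 counts over the group allow (3 counts), day 10 exceeded day 0 at least 23.1-fold. In the KO libraries it reached at most 0.05 CPM. Hoxb9, a thoracic gene, had 1 count over the WT day 0 libraries and 102 in those of day 10, 139 times as many per library size (95% counting interval 24.3 to 5531), and stood at 2.74 and 3.36 CPM. Hoxb13, the last gene of cluster b and known from tail and prostate, was at 0.64 and 0.78 CPM at day 0 and 2.26 and 1.42 CPM at day 10 (1.32, SE 0.42, adjusted p = 0.0437), a call that ended in 8 of 12 single-library omissions. Intervals and limits here cover counting error only.

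Hoxc4, at the other end of cluster c, was at 1.85 and 3.95 CPM in WT at day 0, 3.19 and 3.57 CPM at day 2 and 7.17 and 5.04 CPM at day 10, and at 8.68 and 12.96, 9.64 and 11.004 and 8.62 and 6.90 CPM in KO. The WT groups of day 0 and day 10 did not overlap and the change was 1.05 (SE 0.34, adjusted p = 0.0415), but the adjusted p rose as high as 0.264 over the single-library omissions, with the call lost in 10 of 12. Against the B libraries alone the change was 0.61. Hoxc10 rose by 1.29 (SE 0.42, adjusted p = 0.0415) from 0.27 and 0.21 to 0.66 and 0.58 CPM, also lost in 10 of 12 omissions. Hoxc13 kept its WT call in all 12 omissions. Hoxc12 and Hoxb9 passed the count filter through the WT day 10 libraries, so that a difference from day 0 was set by the filter.

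Over all Hox genes tested in WT, 6 of 31 rose between day 0 and day 10, near the 21.0% of all 14324 genes called higher. Over the same days 12 of 31 fell, against 13.1% of all genes called lower. The median Hox change was -1.01, also with Hoxc12 set at its bound, and the median over all genes was -0.03. The count of 18 was 11 without WT day 10 replicate B. In KO, 2 of 31 rose over the same days (Hoxa11 and Hoxc5) and 4 fell (Hoxb3, Hoxc8, Hoxc9 and Hoxc10), against 9.93% of all genes called higher and 5.19% lower, with a median Hox change of -0.32 and a median over all genes of -0.01.

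The KO count moved with the libraries used. It was 3 without KO day 0 replicate A, 2 without KO day 0 replicate B and 1 without either KO day 10 replicate. The fits with 1 letter leave 1 library in each group of days 0 and 2, so only their effect sizes are given. With letter B alone the KO log2 change was -0.82 for Hoxd3, -1.79 for Hoxd4, -1.59 for Hoxd10 and -0.11 for Hoxd13. The 4 genes called lower in KO over both letters were each under 1 CPM in all 6 WT libraries. Hoxc8, a thoracic gene, was at 3.70 and 6.80 CPM in KO at day 0, 1.68 and 2.42 CPM at day 2 and 1.80 and 1.33 CPM at day 10, and at 0.34 and 0.64, 0.19 and 0.34 and 0.11 and 0.20 CPM in WT, where no library overlapped the KO range. Its KO change was -1.78 (SE 0.39, adjusted p = 0.0163), with an adjusted p of 0.0829 without KO day 10 replicate A, 0.126 without KO day 0 replicate B and 0.144 without KO day 10 replicate B.

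Hoxb3, which works in the hindbrain, was at 5.66 and 8.14 CPM in KO at day 0, 3.74 and 6.58 CPM at day 2 and 2.44 and 1.88 CPM at day 10, and at 0.45 and 0.73, 0.24 and 0.43 and 0.22 and 0.13 CPM in WT. It fell in both genotypes, by 1.73 (SE 0.35, adjusted p = 0.0122) in KO and 1.73 (SE 0.54, adjusted p = 0.0355) in WT on the log2 scale. The WT call ended in 6 of 12 omissions and the KO call at an adjusted p of 0.0712 without KO day 10 replicate A, 0.0849 without KO day 0 replicate B and 0.119 without KO day 10 replicate B. Hoxc9 in KO went from 3.54 and 3.82 to 1.81 and 0.97 CPM (-1.47, SE 0.35, adjusted p = 0.0234, with 0.0804 without KO day 0 replicate A, 0.0949 without KO day 0 replicate B and 0.161 without KO day 10 replicate B) and Hoxc10 from 1.26 and 1.39 to 0.25 and 0.30 CPM (-2.29, SE 0.40, adjusted p = 0.00572, with 0.0591 without KO day 10 replicate A). Hoxa11 had 1 count over the KO day 0 libraries and 12 in those of day 10, 15.7 times as many per library size (95% counting interval 2.32 to 669). Its adjusted p was 0.0639 by DESeq2, 0.105 without KO day 0 replicate A, 0.116 without KO day 10 replicate A and 0.0542 without KO day 10 replicate B. Hoxc5 changed by 1.41 (SE 0.41, adjusted p = 0.0484), lost in 10 of 12 omissions. Hoxb4 was at 2.91 and 5.24 CPM in WT at day 0 and 2.65 and 2.65 CPM at day 10, at 3.63 and 5.78 and 4.06 and 4.24 CPM in KO, and was not called in any comparison of the fit to all libraries. With letter B alone at days 0 and 2 its WT change from day 0 to day 10 was -1.01. In that fit, with 1 library in each group of those days, its KO difference from WT at day 10 was 0.73.

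**Figure D3:**
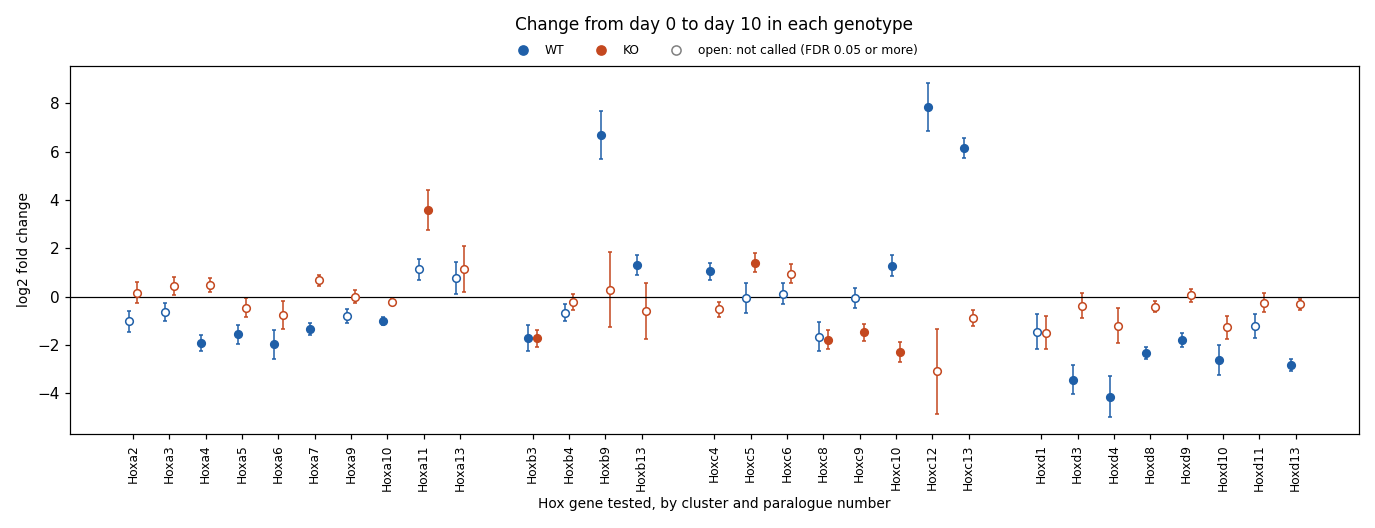
Log2 fold change from day 0 to day 10 of Hox genes that were tested, for WT (blue) and KO (orange-red), with bars of 1 SE and filled points where the adjusted p was under 0.05. In WT all 8 cluster d points lie below 0, 6 of them filled, while no KO point of cluster d is filled. The fitted values of Hoxc12 and Hoxb9 rest on 0 or 1 count at day 0.

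In the fit without a letter block, more Hox genes were called in WT between day 2 and day 10 than over the first 2 days. The letter difference of days 0 and 2 stays in the error of that fit. From day 0 to day 2, 0 of 31 rose and 1 fell in WT, against 3.32% of all genes called higher and 1.98% lower. The 1 was Hoxd13 (-1.12, SE 0.25, adjusted p = 0.0355), with within-letter ratios of 0.492 in A and 0.452 in B, a call lost in 8 of 12 single-library omissions. From day 2 to day 10, 6 rose (Hoxb9, Hoxb13, Hoxc9, Hoxc10, Hoxc12 and Hoxc13) and 13 fell, against 18.3% and 11.2% of all genes, and the total of 19 was 12 without WT day 2 replicate B and 11 without WT day 10 replicate B. The 13 included Hoxa3, Hoxa4, Hoxa5, Hoxa6, Hoxa7 and Hoxa10 of cluster a and the 6 of cluster d that had also fallen since day 0. In KO the first 2 days gave 0 higher and 1 lower, Hoxc9 (-1.45, SE 0.35, adjusted p = 0.0432), against 4.02% and 2.37% of all genes, a call lost in 10 of 12 omissions. From day 2 to day 10 edgeR called 0 of 31 in KO, 6 had an unadjusted p under 0.05 and DESeq2 called 3, all lower, against 2.49% of all genes called higher and 0.607% lower by edgeR.

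Within letters, Hoxd3 and Hoxd4 were higher at day 2 than at day 0 in KO. Hoxd3 was 2.42 times its day 0 level in the KO letter A libraries and 2.39 times in the B libraries, and Hoxd4 1.48 and 1.52 times, while in WT the ratios were 0.936 and 0.99 for Hoxd3 and 0.998 and 0.823 for Hoxd4. Neither KO change passed the test over both letters (1.25, SE 0.52, adjusted p = 0.248 for Hoxd3, 0.58 (SE 0.71, adjusted p = 0.847) for Hoxd4). With the letter entered as a block at days 0 and 2, 8 Hox genes were called in WT over these days and 11 in KO. Of the 11 in KO, 8 were higher, Hoxd3 and Hoxd4 among them, and 3 lower. The test of a genotype difference in the change by day 2 gave 0 Hox calls by edgeR and 0 by DESeq2, with 3 below 0.05 before adjustment in edgeR, where 0.126% of all genes were called higher and 0.0698% lower. With that block it called 3 higher, Hoxd3, Hoxd4 and Hoxd13. The shares of all genes given here are for the fit without the block. Shares with the block are not given, so the blocked Hox counts have nothing to be set against.

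The genotypes already differed at day 0, chiefly in cluster c, which was higher in KO. Of 31 genes 7 were higher in KO (Hoxb3, Hoxc4, Hoxc8, Hoxc9, Hoxc10, Hoxc13 and Hoxd13) and 2 lower (Hoxa11 and Hoxb13), against 2.69% of all genes called higher and 5.59% lower. Hoxb3, Hoxc5, Hoxc8 and Hoxd1 passed the count filter only through KO libraries, and Hoxa11, Hoxa13 and Hoxb13 only through WT libraries. For these genes a genotype difference, on this day or later, was favoured by the filter. Of the 8 cluster c genes tested 5 were called higher, with a median log2 difference of 2.55, whereas in cluster a 0 were higher and 1 lower, with a median of -0.15. The difference was 3.50 (SE 0.43, adjusted p = 0.00162) for Hoxc8, 3.60 (SE 0.39, adjusted p = 0.00096) for Hoxb3 and 3.79 (SE 0.41, adjusted p = 0.000957) for Hoxc13. Hoxc4 differed by 1.97 (SE 0.34, adjusted p = 0.00852), with an adjusted p of 0.0615 without WT day 0 replicate A and 0.0644 without KO day 0 replicate B. Hoxc9 at 0.60 and 0.62 CPM in WT and 3.54 and 3.82 CPM in KO, and Hoxc10 at 0.27 and 0.21 and 1.26 and 1.39 CPM, completed the group, the Hoxc10 call ending at an adjusted p of 0.0554 without WT day 0 replicate B. Hoxd13 was higher in KO by 1.28 (SE 0.24, adjusted p = 0.0132), with within-letter ratios of 2.55 in A and 2.12 in B, and adjusted p values of 0.0623 without WT day 0 replicate A, 0.082 without WT day 0 replicate B and 0.0717 without KO day 0 replicate A.

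The 2 genes lower in KO were a count near the 5.59% of all genes called lower. Both are posterior, as were 14 of the 31 Hox genes tested. Hoxa11 had 1 count over the KO day 0 libraries and 35 over the WT ones, a KO to WT ratio of 0.0308 (95% counting interval 0.000758 to 0.183), and Hoxb13 had 2 and 32, a ratio of 0.0673 (0.00782 to 0.264). The Hoxa11 call ended when only the 4 day 0 libraries were fitted (adjusted p = 0.0955). With letter B alone at days 0 and 2 the log2 difference of Hoxa11 was -3.53. The Hoxb13 call at day 0 was lost without any 1 of the 4 day 0 libraries, with adjusted p of 0.0526 without WT day 0 replicate A, 0.0654 without WT day 0 replicate B, 0.09 without KO day 0 replicate A and 0.0882 without KO day 0 replicate B. None of the genes from Hoxa2 to Hoxa10 or from Hoxd3 to Hoxd9 was called between genotypes at day 0. When only the 4 libraries of day 0 were fitted, 1 of 31 was called.

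At day 2, 12 Hox genes were higher in KO and 2 lower, against 4.29% and 6.16% of all genes. Those higher were Hoxb3, 7 of 8 cluster c genes (Hoxc4, Hoxc5, Hoxc6, Hoxc8, Hoxc9, Hoxc10 and Hoxc13) and the posterior Hoxd9, Hoxd10, Hoxd11 and Hoxd13. Those lower were Hoxb13 and Hoxa11, the latter lost in 10 of 12 omissions. Hoxd13 differed by 2.54 (SE 0.26, adjusted p = 0.000623), with within-letter ratios of 6.10 in A and 4.88 in B, and Hoxd11 by 2.74 (SE 0.42, adjusted p = 0.00396). Hoxc5 and Hoxc6, both central genes, differed by 3.55 (SE 0.48, adjusted p = 0.00231) and 2.14 (SE 0.40, adjusted p = 0.01), the Hoxc6 call being lost in 3 of 12 omissions. Hoxb13 had 0 counts over the KO day 2 libraries and 20 in WT, so that it was at least 5.76-fold lower in KO. The count of 14 was 8 without WT day 2 replicate A and 7 without WT day 2 replicate B, and with only the 4 libraries of that day it was 0.

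At day 10 the difference covered most of cluster d and reached into cluster a. Of 31 Hox genes 17 were higher in KO and 5 lower, against 12.4% and 19.9% of all genes, so that across all genes more were lower and among Hox genes more were higher. In cluster d 7 of 8 were higher, with a median log2 difference of 2.50, and Hoxd1 was not called. Hoxd13 differed by 3.78 (SE 0.28, adjusted p = 7.78e-05), Hoxd9 by 2.27 (SE 0.29, adjusted p = 0.000663) and Hoxd8 by 2.15 (SE 0.24, adjusted p = 0.000327), and these 3 calls held in all 12 omissions. Hoxd3 differed by 2.98 (SE 0.60, adjusted p = 0.00559) and Hoxd4 by 3.20 (SE 0.81, adjusted p = 0.0158), the latter with adjusted p of 0.0747 without WT day 10 replicate A, 0.11 without WT day 10 replicate B, 0.0526 without KO day 10 replicate A and 0.0642 without KO day 10 replicate B. Hoxd10 (2.73, SE 0.63, adjusted p = 0.0104, with 0.0696 without WT day 10 replicate B and 0.0663 without KO day 10 replicate B) and Hoxd11 (2.25, SE 0.47, adjusted p = 0.00677, with 0.055 without WT day 10 replicate A) followed.

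In cluster a 5 of 11 were higher in KO at day 10 and Hoxa11 was lower. Hoxa4 differed by 2.32 (SE 0.32, adjusted p = 0.000991) and Hoxa7 by 1.93 (SE 0.25, adjusted p = 0.000699). Hoxa10 differed by 0.66 (SE 0.16, adjusted p = 0.0121), with 0.102 without WT day 10 replicate B and 0.0655 without KO day 10 replicate A. Hoxa5 (1.24, SE 0.40, adjusted p = 0.0442, lost in 5 of 12 and with adjusted p of 0.0858 on library totals without TMM) was nearer the threshold. Hoxa11 was at 1.38 and 2.11 CPM in WT and 0.44 and 0.30 CPM in KO, a difference of -2.18 (SE 0.48, adjusted p = 0.00815), with 0.0714 without WT day 10 replicate B and 0.0814 without KO day 10 replicate B.

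Hoxb9, Hoxb13, Hoxc12 and Hoxc13, which had risen in WT, were lower in KO at day 10. Hoxb9 and Hoxc12 passed the count filter only through the WT day 10 libraries, and Hoxb13 only through WT libraries. For these genes a lower KO level was favoured by the filter. Hoxc13 differed by -3.28 (SE 0.33, adjusted p = 0.000231), the reverse of its day 0 difference. Hoxc12 had 0 counts over the KO libraries and 51 over the WT ones, at least 16.5-fold lower in KO. Hoxb9 had 2 and 102 counts, a KO to WT ratio of 0.0203 (95% counting interval 0.00242 to 0.0751), and Hoxb13 had 1 and 63, a ratio of 0.0164 (0.000409 to 0.0948). Other genes of clusters b and c went the other way: Hoxb3 (3.60, SE 0.49, adjusted p = 0.000879), Hoxc5 (3.38, SE 0.50, adjusted p = 0.00129), Hoxc6 (1.93, SE 0.42, adjusted p = 0.00769) and Hoxc8 (3.38, SE 0.55, adjusted p = 0.00192) were higher in KO. Of these, Hoxb3, Hoxc5 and Hoxc8 passed the count filter only through KO libraries, so a higher KO level was likewise favoured by the filter. Hoxc6 was at 0.83 and 1.10 CPM in WT and 4.12 and 2.97 CPM in KO, and its adjusted p was 0.0703 without WT day 10 replicate A and 0.0589 without KO day 10 replicate A. Hoxc5 reached at most 2.35 CPM. The Hoxc9 call (1.20, SE 0.40, adjusted p = 0.0463) ended in 9 of 12 omissions, and Hoxc4 (0.39, SE 0.33, adjusted p = 0.426) no longer differed past the threshold. Hoxc5 and Hoxc10 are annotated with shared exon sequence, so their reads may be split between them.

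**Figure D4:**
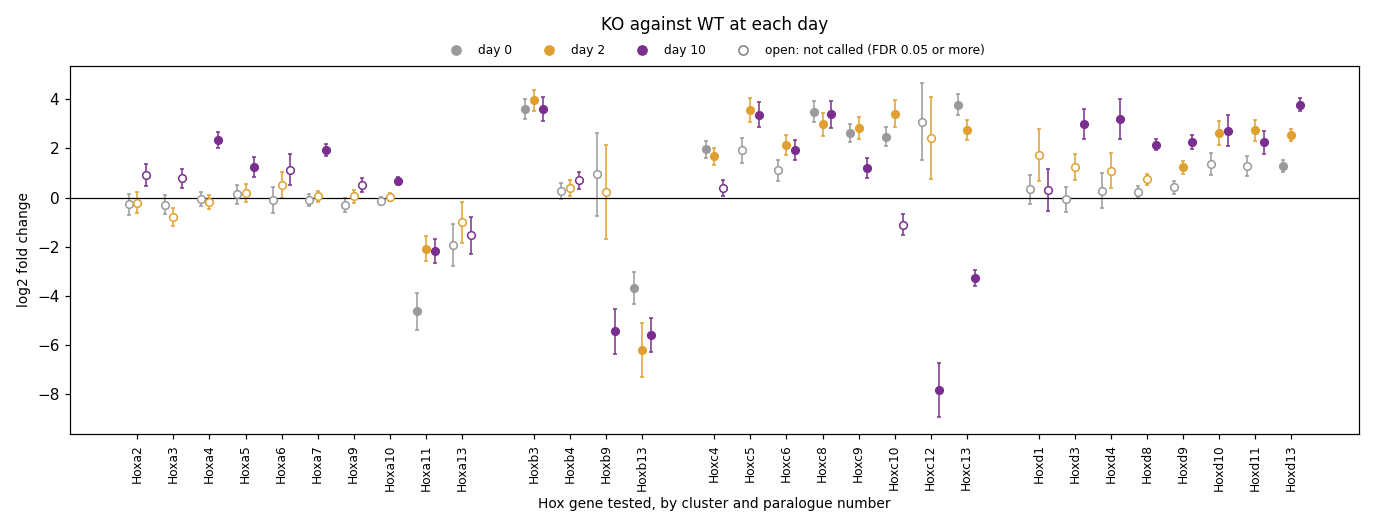
Log2 difference of KO from WT at day 0 (grey), day 2 (orange) and day 10 (purple) for Hox genes that were tested, with bars of 1 SE and filled points where the adjusted p was under 0.05. In cluster d 1 point is filled at day 0, 4 at day 2 and 7 at day 10, all above 0, and Hoxc13 moves from above 0 to below it. The fitted values of Hoxa11, Hoxb9, Hoxb13 and Hoxc12 rest on 0 to 2 counts in some groups.

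Whether the day 0 to day 10 change differed between genotypes was tested directly as an interaction, and 10 of 31 Hox genes were called. A positive value means that the gene ended higher in KO than in WT relative to day 0. There were 7 positive calls (Hoxa4, Hoxa7, Hoxa10, Hoxd3, Hoxd8, Hoxd9 and Hoxd13) against 6.35% of all genes, and 3 negative calls (Hoxc10, Hoxc12 and Hoxc13) against 6.2%. All 7 lie in clusters a and d and all 3 at the posterior end of cluster c. The interaction was 2.50 (SE 0.35, adjusted p = 0.00289) for Hoxd13, 1.91 (SE 0.32, adjusted p = 0.00579) for Hoxd8 and 2.02 (SE 0.34, adjusted p = 0.00647) for Hoxa7, and -7.06 (SE 0.53, adjusted p = 0.000201) for Hoxc13. The count was 6 without KO day 10 replicate A. Hoxa10 was near the threshold (0.81, SE 0.22, adjusted p = 0.0444), and its call ended in 10 of 12 omissions, on library totals without TMM (adjusted p = 0.0581) and with DESeq2 size factors (0.0575). The Hoxd3 call (3.06, SE 0.79, adjusted p = 0.0361) ended in 6 of 12, and that of Hoxd9 at an adjusted p of 0.0579 without KO day 10 replicate A. The Hoxc12 call ended in 8 of 12. Hoxc12 passed the count filter only through the WT day 10 libraries, so a negative value was favoured by the filter. Hoxd4 did not pass (2.92, SE 1.06, adjusted p = 0.115). With 1 letter at days 0 and 2 its interaction was 3.01 in A and 2.93 in B. The comparisons at day 10, the changes over time and the interaction use the same libraries and are not independent of each other.

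Cluster d made up a smaller part of the Hox RNA in WT at day 10, and at least 49.6% of it in every KO library. Cluster d went from 49.4% ± 1.78 of Hox TPM at day 0 to 37.4% ± 4.59 at day 2 and 15.4% ± 0.14 at day 10 in WT (SD, n = 2), and cluster c from 2.92% ± 0.11 to 3.21% ± 0.29 and 25.5% ± 1.13. Cluster a stayed at 45.3% to 57.2%, and cluster b rose from 2.41% ± 0.12 to 8.92% ± 0.69. In KO cluster d held 56.5% ± 0.55 at day 0 and 50.2% ± 0.725 at day 10, and cluster c 10.4% ± 0.37 and 8.71% ± 1.39. The sum of all Hox TPM was 135 and 269 in WT at day 0 (A and B) and 97.3 and 79.6 at day 10, against 181 and 331 and then 201 and 187 in KO. Shares within a library do not depend on its depth, but a smaller cluster d raises the share of the others.

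**Figure D5:**
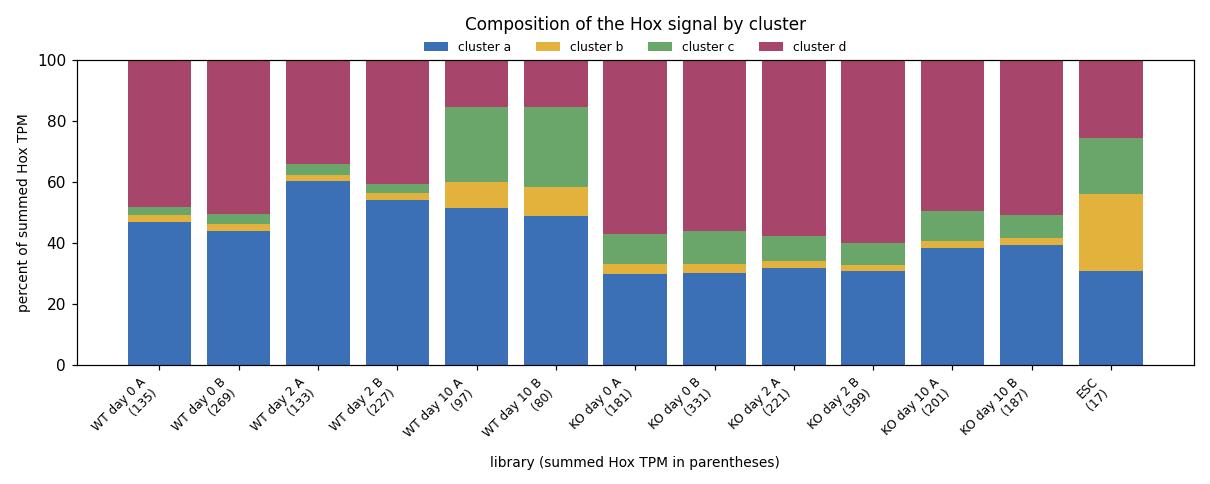
Percent of the summed Hox TPM held by each cluster in each library, stacked to 100, with the summed Hox TPM in parentheses. The cluster d part shrinks to 15.3% and 15.5% in the WT day 10 libraries and stays at 49.6% and 50.7% in the KO ones.

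The single ESC library has no replicate and entered no test. The highest Hox gene there was Hoxd13 at 2.93 CPM, 4 of 39 reached 1 CPM, Hoxb9, Hoxc13 and Hoxd13 among them, 2 had 0 counts, and the summed Hox TPM was 17.2. Set beside it, the WT day 10 libraries had Hoxd13 at 3.69 and 4.92 CPM and Hoxd9 at 3.53 and 1.88 CPM against 0.35 CPM in ESCs, but still had Hoxa10 at 16.3 and 13.5 CPM against 0.95 CPM and Hoxa9 at 15.6 and 12.5 against 0.50 CPM. Of the 39 genes, 19 had a mean of at least 1 CPM in WT at day 10, 18 at day 2 and 17 at day 0, but the number at 5 CPM or more was 5, 11 and 11. In KO 24 reached 1 CPM on each of the 3 days. The 8 genes too low to be tested (Hoxb1, Hoxb2, Hoxb5, Hoxb6, Hoxb7, Hoxb8, Hoxc11 and Hoxd12) were at 0.39 CPM or less in every pre-iPSC library.

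Of the 9 TALE partners of the Hox proteins, 5 fell in WT from day 0 to day 10, Meis1, Meis2, Pbx3 and Pknox2 among them, and none rose, against 13.1% of all genes called lower and 21.0% higher. In KO 3 rose, Meis2 and Pknox2 among them, and none fell, against 9.93% called higher and 5.19% lower. Meis1, a common partner of posterior Hox proteins, was at 24.7 and 25.4 CPM in WT at day 0 and 6.46 and 3.36 CPM at day 10, and at 20.2 and 21.9 and 21.1 and 25.2 CPM in KO, without overlap between WT day 10 and any other pre-iPSC group. The log2 change was -2.41 (adjusted p = 0.000296) in WT, and the interaction 2.48 (adjusted p = 0.00381). Meis2 went from 45.8 and 50.7 to 29.2 and 25.3 CPM in WT and from 39.5 and 43.05 to 79.6 and 80.5 CPM in KO, with an interaction of 1.78 (adjusted p = 0.000902). The interaction was called for 5 of the 9, all positive, against 6.35% of all genes.

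Other genes of positional identity in fibroblasts and limb were mixed. Of 14 tested, 5 rose and 4 fell in WT and 4 rose and 2 fell in KO from day 0 to day 10. Of all genes, 21.0% were called higher and 13.1% lower in WT, and 9.93% and 5.19% in KO. Foxd1, a stromal transcription factor, was at 96.9 and 106 CPM in WT at day 0 and 10.97 and 11.5 CPM at day 10, and at 78.9 and 82.9 and 311 and 251 CPM in KO. Its interaction was 4.97 (adjusted p = 0.000128). Tbx15, a trunk and limb gene, fell in both genotypes, by 1.87 in WT (adjusted p = 0.000339) and 1.90 in KO (adjusted p = 0.000692) on the log2 scale.

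The genes that flank the clusters were mostly called in neither genotype: of 19 tested, 2 rose and 1 fell in WT from day 0 to day 10, and 2 rose and none fell in KO. The shares of all genes called higher and lower were 21.0% and 13.1% in WT and 9.93% and 5.19% in KO, with the KO counts near those shares. Both WT risers lie beyond the Hoxb13 end of cluster b, in the RefSeq gene order. Ttll6 went from 0.38 and 1.09 to 7.83 and 8.81 CPM (3.49 on the log2 scale, adjusted p = 0.00496) and Calcoco2, an autophagy receptor gene, from 0.80 and 2.43 to 78.8 and 127 CPM (5.98, adjusted p = 0.000159). In KO Calcoco2 went from 0.46 and 1.09 to 7.69 and 4.30 CPM (2.91, adjusted p = 0.0106). Evx1, beyond Hoxa13, was listed at 0 counts in both KO day 0 libraries, at 1.48 and 2.49 CPM in WT at day 0 and at 0.31 and 0.79 CPM in KO at day 10. Atf2, near cluster d, fell in WT by 0.46 on the log2 scale (adjusted p = 0.0429).

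Among regulators of the clusters, calls went both ways. The shares of all genes called higher and lower from day 0 to day 10 were 21.0% and 13.1% in WT and 9.93% and 5.19% in KO. Of 19 Polycomb genes, which hold Hox clusters silent, 2 rose (Cbx7 and Mtf2) and 4 fell, Bmi1 and Phf19 among them, in WT from day 0 to day 10, and 3 rose and 3 fell in KO. Of 12 Trithorax and MLL genes, which keep them active, 2 rose (Ash2l and Wdr5) and 1 fell (Men1) in WT and 0 were called in KO. Of 9 upstream regulators and ParaHox genes tested, 4 rose and 4 fell in WT, with the caudal gene Cdx1 and the retinoic acid enzyme gene Aldh1a2 among the risers and Gsx1 and Rarg among those that fell, and 2 rose and 1 fell in KO.

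Markers of other cell types moved with the same groups, and their part in the Hox values was not tested. From day 0 to day 10, 21.0% of all genes were called higher and 13.1% lower in WT, and 9.93% and 5.19% in KO. The 15 fibroblast markers summed to 76.2 to 195 CPM in WT at day 0 and 187 to 229 CPM at day 10, where 8 of 13 tested rose and 1 fell. In KO the sum went from 96.2 to 306 CPM down to 33.1 to 34.8 CPM, 3 of 13 tested rose and 1 fell, and Col1a2 was at 0 at day 0 and at 0.125 CPM or less later. The sum of the 15 fibroblast markers was highest in the ESC library, at 647 CPM, where Hox genes were lowest. The 4 trophoblast markers summed to 1.51 to 2.6 CPM in WT at day 0 and 37.4 to 38.2 CPM at day 10, the days between which Hoxb9, Hoxc12 and Hoxc13 rose, and to 0.65 to 0.72 and then 4.18 to 4.75 CPM in KO, and 1 of the 4 at WT day 10 and 2 of the 4 at KO day 10 were under 1 CPM. The 4 endoderm markers summed to 0.73 to 0.87 CPM and then 5.69 to 6.28 CPM in WT, and to 2.29 to 3.03 and then 1.51 to 1.94 CPM in KO. The 8 naive pluripotency markers summed to 888 to 2132 CPM in WT at day 0 and 4111 to 4608 CPM at day 10, and to 906 to 2548 and then 1162 to 1333 CPM in KO, with 7 of 8 called higher in each genotype. The remaining marker, Klf4, was called lower in WT and was not called in KO. The 5 epithelial markers summed to 118 to 170 and then 999.5 to 1057 CPM in WT and to 14.7 to 26.0 and then 158 to 214 CPM in KO. The 8 neural progenitor markers summed to 173 to 314 and then 94.5 to 105 CPM in WT and to 118 to 235 and then 296 to 305 CPM in KO. The 4 haematopoietic markers moved the same way as the cluster d genes in WT, with sums of 13.4 to 20.8 CPM at day 0 and 5.68 to 6.57 CPM at day 10, against 12.7 to 20.7 and then 16.1 to 16.8 CPM in KO. Of the 3 tested, Runx1 was called lower in WT and positive in the interaction, and 0 were called in KO.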

How the data were processed

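RNA of 12 pre-iPSC libraries and 1 ESC library was made into single-end libraries with a TruSeq kit, per the labels' protocols. Reads were handled by the authors with Bowtie2 and RSEM on mm9, per the submitters' processing notes, with versions and annotation not stated by any label or header. The deposited RSEM tables hold expected counts and TPM per gene, TPM being scaled by the authors for transcript length and depth. Expected counts can split reads between similar or overlapping genes. CPM was computed here as the expected count per 1000000 of the library total (14891294 to 26430050).

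Expected counts were rounded and tested with edgeR 4.0.16 in R 4.3.3: filterByExpr with a minimum count of 10 and a minimum total of 15, TMM scaling (factors 0.9218 to 1.064), and a quasi-likelihood fit over the 6 groups of 2 libraries. A gene was called at a Benjamini-Hochberg adjusted p under 0.05 over 14324 genes. The common biological coefficient of variation was 0.2664 with 6 residual degrees of freedom. The ESC library entered no test. Of the 39 Hox genes 31 passed the filter, so the genes tested are not all members. For a gene that passed only through the groups where it is high, a difference was favoured by the filter. Fold limits against 0 counts used 3 counts over a group, and intervals are 95%, for counting error only.

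Alternatives were DESeq2 1.42.0, library totals without TMM, DESeq2 size factors in edgeR, no filter, only the libraries compared, the letter as a block (at all days, or at days 0 and 2) and leaving out each library. Fits with 1 letter at days 0 and 2 were added after seeing the data. They left 1 library in each group of those days, so the spread came from the day 10 libraries alone. Their p-values do not measure the spread at days 0 and 2, so neither these nor calls from them are given. The code was tested on simulated data. Every library's value was given for members with a group mean of at least 5 CPM; members called between genotypes were named; other lists were limited to up to 4 called genes per comparison that averaged 1 CPM or more, plus flanking genes. Members and lists were chosen with earlier results of these data known. Promoters and gene order came from RefSeq (GRCm38.p6) and overlaps from GENCODE on GRCm38, used for names, order and sequences only. Some items are not reported here or drawn in the figures; counts include them.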

Additional observations from a re-analysis of the deposited data

Results flagged for a closer look

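The change from day 0 to day 10 differed between genotypes for 10 Hox genes, by the interaction test in edgeR at an adjusted p under 0.05. The log2 values of KO relative to WT were 2.38 for Hoxa4, 2.02 for Hoxa7 and 0.81 for Hoxa10 in cluster a. In cluster d they were 3.06 for Hoxd3, 1.91 for Hoxd8, 1.86 for Hoxd9 and 2.50 for Hoxd13. In cluster c they were -3.58 for Hoxc10, -10.93 for Hoxc12 and -7.06 for Hoxc13. The Hoxc12 value is a fitted one that depends on the prior count, since WT at day 0 and KO at day 10 had 0 counts, and it is no bound. Its call ended in 8 of 12 single-library omissions, that of Hoxa10 in 10, that of Hoxd3 in 6 and that of Hoxd9 in 1.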

How the results depend on the processing

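Of 100 Hox calls over the 11 comparisons none reversed under any alternative run. The calls kept were 93 under DESeq2, 91 without TMM, 97 with DESeq2 size factors and 92 without the filter. They were 68 of 96 with only the libraries compared, and 70 to 94 when 1 library was left out. The counts of called Hox genes moved by over 1.5 times as follows. DESeq2 gave 2 for WT day 2 against day 0 (1 in the reported fit), 4 for KO day 2 against day 0 (1) and 3 for KO day 10 against day 2 (0). For KO day 2 against day 0, the fits without TMM and without the filter gave 0. With only the libraries compared, the counts were 0 for day 2 against day 0 in WT and in KO, 2 for KO day 10 against day 0 (6), 1 for KO against WT at day 0 (9) and 0 at day 2 (14). With letter B alone they were 2 for KO day 2 against day 0, 10 for KO day 10 against day 0 and 7 for KO day 10 against day 2, and with letter A alone 3, 10 and 5. Leaving out 1 library gave ranges of 0 to 1 for day 2 against day 0 in either genotype, 11 to 18 for WT day 10 against day 0, 11 to 20 against day 2, 1 to 6 for KO day 10 against day 0, 6 to 10, 7 to 14 and 15 to 22 for KO against WT at days 0, 2 and 10, and 6 to 10 for the day 10 interaction. The cause of these shifts was not tested, beyond the fewer libraries in the last 2 kinds of fit.

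The labels give letters A and B without saying that they pair libraries. A minus B differences correlated at 0.88 to 0.922 among the groups of days 0 and 2 and at -0.132 to 0.036 for pairs with a day 10 group, so the letters were not taken to pair all libraries. With the replicate block at all days the counts were 1, 20 and 20 in WT (day 2 against 0, day 10 against 0 and against 2), 4, 7 and 3 in KO, 10, 16 and 22 between genotypes at days 0, 2 and 10, and 12 and 0 for the interactions at day 10 and day 2, and all 100 calls were kept. With the replicate block at days 0 and 2 only, which sets day 10 against the letter A level, the counts were 8 for WT and 11 for KO day 2 against day 0, 12 for KO day 10 against day 0, 7 against day 2, 19 for the day 10 interaction and 3 for the day 2 interaction. The shares of all genes called in these blocked fits are not given. Depth limits the genes under 1 CPM, where 1 count was worth 0.0378 to 0.0672 CPM.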
